A study of Mus musculus with 4 samples.

Results

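The genes described here are Hoxa cluster genes and the TALE homeobox genes whose proteins bind DNA beside HOX proteins, measured in myeloid progenitors with and without a Bcor mutation. They are Hoxa5, Hoxa7, Hoxa9 and Hoxa10 together with Meis1, Pbx2, Pbx3 and Pknox1, 8 genes of the 12067 in the count table. They were taken by name from a list of 9, and no measured value enters the rule. The list itself was chosen with earlier results of these data known. The other name, Hoxa3, was not analysed here.

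RNA came from donor-derived KL cells, the CD45.2+ Lin- cKIT+ Sca-1- fraction of bone marrow that holds committed myeloid progenitors. The marrow was that of CD45.1 Ptprca recipients, which were female and sub-lethally irradiated, and it was taken 20 weeks after whole bone marrow had been transplanted. The BcorΔE9-10 group, with 2 libraries, had scl-Cre-ERT +; Bcorfl/y donors, in which tamoxifen deletes exons 9 and 10 of the X-linked Bcor gene and leaves a truncated protein without the domain that joins it to Polycomb repressive complex 1. The BcorWT group, also with 2 libraries, had Bcorfl/y donors without Cre, so donors of both groups carried the floxed allele and only the BcorΔE9-10 donors carried the transgene. The transgene drives Cre from an Scl enhancer active in haematopoietic stem cells, so the deletion can be present in every blood lineage of the graft. The paper states that donors of both groups were given tamoxifen. The labels do not say how many donors or recipients stand behind a library.

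Hox genes encode homeodomain transcription factors that lie in clusters and are expressed in overlapping sets along the cluster. In haematopoiesis the 5′ Hoxa genes, Hoxa9 above all, are expressed in stem cells and early progenitors and are switched off as myeloid cells mature, and the cluster is a classical target of Polycomb repression. HOX proteins select their sites with partners of the TALE class, so named for a three-residue loop extension in the homeodomain, to which the PBX, MEIS and PKNOX (PREP) proteins belong.

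The libraries held between 3825289.5 and 6253100.5 counts in all, and 3 counts corresponded to between 0.489 and 0.876 CPM (counts scaled to the library's total, with trimmed-mean factors). BcorWT replicate 1 and replicate 2 differed most from each other, with a Pearson correlation of log2 CPM of 0.893 across genes, against 0.947 for the BcorΔE9-10 replicates. A single gene, Gm42418, took between 1.43% and 27.9% of the counts of a library, and the extremes were the BcorWT libraries. Bcor tags were at 19.2 and 18.4 CPM in BcorΔE9-10 and at 16.9 and 14.9 CPM in BcorWT, which does not check the labels because the tags lie at the 3′ end, outside the deleted exons.

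The comparison of BcorΔE9-10 with BcorWT asks which genes are expressed differently in progenitors that carry the mutation. All 4 Hoxa genes had higher levels in both BcorΔE9-10 libraries than in either BcorWT library, with log2 fold changes of 1.39 to 2.19. The 4 TALE genes had log2 fold changes between -0.14 and 0.42. No member passed an adjusted p of 0.05 in edgeR's quasi-likelihood test with Benjamini-Hochberg adjustment, a threshold that 2 of the 12067 genes (0.0166%) passed. Unadjusted p-values below 0.05 with a higher level in BcorΔE9-10 were found for 4 of the 8 members, the Hoxa genes, against 162 of all genes (1.34%). Groups that did not overlap, with BcorΔE9-10 higher, were found for 5 of the 8 members, the Hoxa genes and Pbx3, against 16.8% of all genes. A log2 fold change above 1 was found for the 4 Hoxa genes, against 2.72% of all genes, and one above 0 for 6 members, against 47.7%. Hoxa5 and Hoxa10 had only 5 counts in a BcorWT library, and gave no value with at least 10 counts required in every library. The rule by which genes entered the deposited table is not given, so for these genes the comparison with all genes may partly depend on it. The median log2 fold change was 1.88 for the Hoxa genes, 0.03 for the TALE genes and -0.03 for all genes.

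Other fits called few members. DESeq2 called 1 member, Hoxa9, at an adjusted p of 0.0150, among 43 genes in all (0.356%), and limma-voom called 0 members and 4 genes (0.0331%). With BcorWT replicate 1 left out, edgeR's quasi-likelihood test with Benjamini-Hochberg adjustment called Hoxa9 and Hoxa10, at adjusted p of 0.0164 and 0.0375, but it then called 596 of 12063 genes (4.94%). With only 2 libraries in each group an exact permutation test of a single gene cannot go below a two-sided p of 0.333, so no such test was run.

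**Figure D1:**
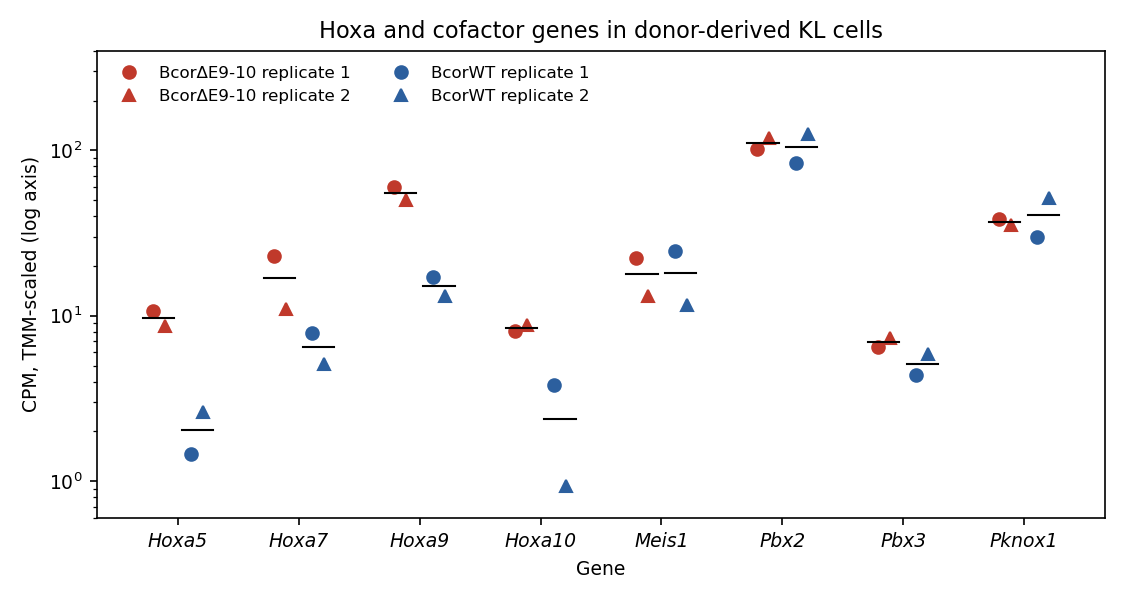
Level of each member in each library, in CPM on a log axis, with circles for replicate 1, triangles for replicate 2, red for BcorΔE9-10, blue for BcorWT and a bar at each group's mean (n = 2). The red points of Hoxa5, Hoxa7, Hoxa9 and Hoxa10 lie above the blue points, while red and blue points of Meis1, Pbx2 and Pknox1 interleave.

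The Hoxa members lie within 39.1 kb of chromosome 6, all on the minus strand (GRCm38). Hoxa5 is at chr6:52201754-52204587, Hoxa7 at chr6:52214491-52221854, Hoxa9 at chr6:52223100-52231089 and Hoxa10 at chr6:52231197-52240854. Gene bodies of Hoxa9 and Hoxa10 are 107 bases apart, those of Hoxa7 and Hoxa9 1245 bases, and those of Hoxa5 and Hoxa7 9903 bases. Because these 4 genes differ in the same direction, the 250 bases before their RefSeq starts (build GRCm38.p6, minus strand, 5′ to 3′) are given, with each CpG, the dinucleotide whose unmethylated islands are bound by Polycomb complexes, in capitals. They are the windows chr6:52204588-52204837 of Hoxa5, chr6:52227371-52227620 of Hoxa9, chr6:52240855-52241104 of the distal Hoxa10 start and chr6:52234940-52235189 of the proximal one. The window of Hoxa7 is described but not printed, as 78 of its bases lie in an annotated exon.
Hoxa5: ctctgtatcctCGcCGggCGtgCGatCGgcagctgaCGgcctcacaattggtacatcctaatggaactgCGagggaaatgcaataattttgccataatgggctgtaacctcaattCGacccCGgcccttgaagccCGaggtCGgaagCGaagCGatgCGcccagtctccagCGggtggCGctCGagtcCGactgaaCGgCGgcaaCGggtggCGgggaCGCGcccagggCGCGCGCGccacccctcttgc
Hoxa9: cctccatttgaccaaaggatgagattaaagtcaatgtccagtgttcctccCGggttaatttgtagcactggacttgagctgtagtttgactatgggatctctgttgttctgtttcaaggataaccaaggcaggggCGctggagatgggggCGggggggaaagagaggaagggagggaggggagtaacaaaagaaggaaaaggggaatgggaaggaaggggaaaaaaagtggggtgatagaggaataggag
Hoxa10 distal: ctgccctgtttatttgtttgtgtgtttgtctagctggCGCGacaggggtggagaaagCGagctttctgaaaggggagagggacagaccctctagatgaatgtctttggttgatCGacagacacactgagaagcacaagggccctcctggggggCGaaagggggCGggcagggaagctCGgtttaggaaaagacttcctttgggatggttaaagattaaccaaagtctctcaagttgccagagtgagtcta
Hoxa10 proximal: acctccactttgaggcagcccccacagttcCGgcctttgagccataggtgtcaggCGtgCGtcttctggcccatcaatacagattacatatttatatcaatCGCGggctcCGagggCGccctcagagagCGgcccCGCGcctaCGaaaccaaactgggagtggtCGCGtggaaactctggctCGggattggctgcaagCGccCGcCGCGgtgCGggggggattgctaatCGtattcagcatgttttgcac

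The windows differed widely in CpG number. The Hoxa5 window held 28 CpG, more than 92.4% of the 32851 RefSeq promoter windows of the same length, whose median was 6. The Hoxa9 window held 3 CpG, more than 29.0% of promoters. Hoxa7 and the distal Hoxa10 start had 7 CpG each, more than 53.7% of promoters, and the proximal Hoxa10 start had 20, more than 82.1%. Of the TALE genes matched, Meis1 had 13 CpG and Pbx2 had 27, and Pbx3 and Pknox1 had no entry. The windows of Hoxa9, Hoxa7, Pbx2 and the proximal Hoxa10 start lie within the annotated bounds of their genes. Their CpG numbers therefore do not describe the bases before the 5′ end of those bounds. The bases at the RefSeq starts of Hoxa7 and Pbx2 were not found in a GENCODE transcript of these genes. Neither TGATNNAT, a composite PBX-HOX sequence, nor TGACAG, the sequence bound by MEIS and PKNOX proteins, occurred on either strand in the 7 windows of the 6 members matched. These letters occurred in 7.68% and 15.9% of all promoter windows, respectively, and their absence says only that they are not in these 250 bases.

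Hoxa9, a homeodomain factor that supports self-renewal of haematopoietic progenitors and is expressed in many acute myeloid leukaemias, had 327 and 307 counts in the BcorΔE9-10 libraries and 59 and 70 counts in the BcorWT libraries. In CPM these were 60.4 and 50.0 in BcorΔE9-10 (mean 55.2 ± 7.35, SD, n = 2) against 17.2 and 13.2 in BcorWT (15.2 ± 2.87, n = 2). Both BcorΔE9-10 libraries were thus well above both BcorWT libraries, and replicates of a group lay close together. The log2 fold change was 1.87 (SE 0.34, 95% interval 1.08 to 2.65), a 3.64-fold higher level. Its unadjusted p of 6.3e-04 ranked 17 among all genes, and the adjusted p was 0.419 by edgeR's quasi-likelihood test with Benjamini-Hochberg adjustment. Over the alternative fits that adjusted p ran from 0.0150 to 0.999. Leaving out each library in turn moved the log2 fold change of Hoxa9 between 1.68 and 2.06.

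Hoxa5, which lies nearest to the 3′ end of the cluster among the members measured, had 58 and 53 counts in BcorΔE9-10 and 5 and 14 counts in BcorWT. The levels were 10.7 and 8.64 CPM in BcorΔE9-10 (9.68 ± 1.47, SD, n = 2) against 1.46 and 2.63 CPM in BcorWT (2.05 ± 0.830, n = 2). The groups did not overlap, and the BcorWT levels rested on few counts, since the 5 counts of replicate 1 have an exact Poisson interval (95%, counting error only) of 1.62 to 11.7. The log2 fold change of Hoxa5 was 2.19 (SE 0.58, 95% interval 0.86 to 3.53). The unadjusted p was 0.00542 and the adjusted p 0.945 by edgeR's quasi-likelihood test with Benjamini-Hochberg adjustment. Hoxa5 lies within the bounds annotated for Hoxa3 on the same strand and within the antisense gene Hoxaas3, and as the strand setting of the counting is not given in the sources used here, its tags cannot be told apart from theirs with certainty.

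Hoxa7, a cluster neighbour of Hoxa9 that is often co-expressed with it, had 124 and 67 counts in BcorΔE9-10 and 27 counts in each BcorWT library. These were 22.9 and 10.9 CPM (16.9 ± 8.48, SD, n = 2) against 7.88 and 5.08 CPM (6.48 ± 1.98, n = 2). The groups did not overlap, but BcorΔE9-10 replicate 1 was 2.10-fold above replicate 2, and the lower of them was not far above BcorWT replicate 1. The log2 fold change was 1.39 (SE 0.52, 95% interval 0.19 to 2.60) with an unadjusted p of 0.0284 and an adjusted p of 0.945 by edgeR's quasi-likelihood test with Benjamini-Hochberg adjustment. It was 0.76 without BcorΔE9-10 replicate 1 and 1.83 without BcorΔE9-10 replicate 2. Hoxa7 also overlaps Hoxaas3, on the other strand and at its 3′ end, where the tags lie.

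Hoxa10, the most 5′ member, whose product like that of Hoxa9 acts in early progenitors, had 44 and 54 counts in BcorΔE9-10 and 13 and 5 counts in BcorWT. These were 8.13 and 8.80 CPM (8.47 ± 0.474, SD, n = 2) against 3.80 and 0.941 CPM (2.37 ± 2.02, n = 2). The BcorΔE9-10 libraries were nearly equal, and the BcorWT libraries, both lower, differed 4.03-fold from each other. The log2 fold change was 1.90 (SE 0.71, 95% interval 0.25 to 3.55), the unadjusted p 0.0291 and the adjusted p 0.945 by edgeR's quasi-likelihood test with Benjamini-Hochberg adjustment. The size of this difference depended on which BcorWT library was used, as it was 1.15 without BcorWT replicate 2 and 3.14 without BcorWT replicate 1.

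Summed over the 4 genes, the Hoxa level was 102 and 78.4 CPM in BcorΔE9-10 (90.3 ± 16.8, SD, n = 2) and 30.4 and 21.8 CPM in BcorWT (26.1 ± 6.04, n = 2), a ratio of means of 3.46. Hoxa9 supplied 59.1% (95% Wilson interval 55.0 to 63.2) and 63.8% (59.4 to 68.0) of the Hoxa counts in the BcorΔE9-10 libraries. In the BcorWT libraries it supplied 56.7% (47.1 to 65.8) and 60.3% (51.2 to 68.8), so the intervals of all 4 libraries overlapped. Hoxa7 supplied 22.4% (19.1 to 26.1) and 13.9% (11.1 to 17.3) in BcorΔE9-10 against 26.0% (18.5 to 35.1) and 23.3% (16.5 to 31.7) in BcorWT. Its share was lowest in BcorΔE9-10 replicate 2, whose interval overlapped that of BcorWT replicate 2 but not that of BcorWT replicate 1. The interval of BcorΔE9-10 replicate 1 overlapped those of both BcorWT libraries. The difference of the mean Hoxa7 share was -6.44 percentage points, with no test. It was -10.7 without BcorΔE9-10 replicate 1 and -2.20 without BcorΔE9-10 replicate 2. Hoxa5 supplied 10.5% and 11.0% against 4.81% and 12.1%, and Hoxa10 7.96% and 11.2% against 12.5% and 4.31%. For both of these the BcorWT libraries lay on either side of the BcorΔE9-10 libraries.

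**Figure D2:**
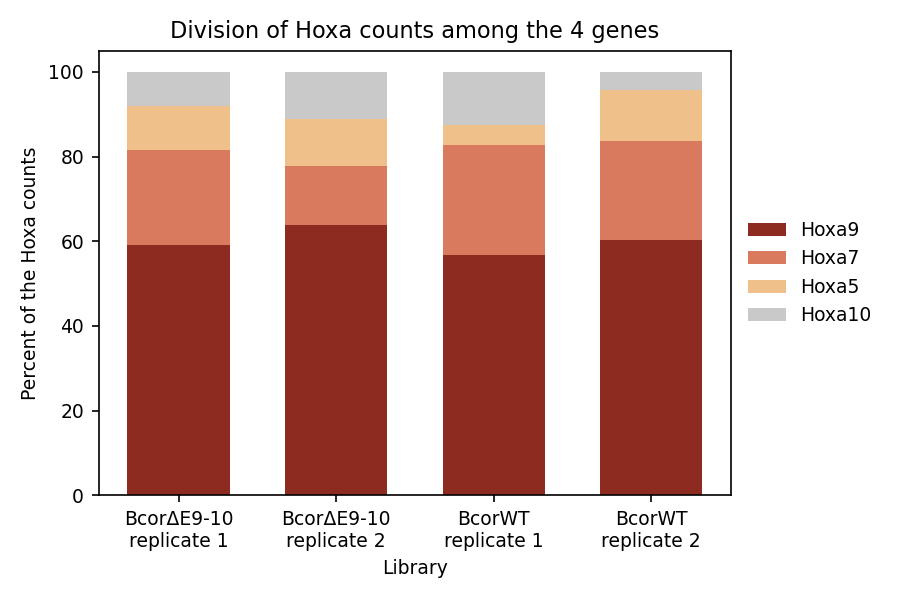
Division of the Hoxa counts among Hoxa9, Hoxa7, Hoxa5 and Hoxa10 in each library, as percent of their summed counts (stacked bars, 1 bar for each library). Hoxa9 holds between 56.7% and 63.8% in every library. The Hoxa7 segment is smallest in BcorΔE9-10 replicate 2 (13.9%) and holds 22.4% to 26.0% in the other libraries, and the BcorWT segments of Hoxa5 and Hoxa10 lie on either side of those of BcorΔE9-10.

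Among the TALE genes, Meis1 encodes a cofactor that binds DNA with HOXA9 and PBX proteins and accelerates Hoxa9-driven leukaemia in mice. It had 121 and 81 counts in BcorΔE9-10 and 84 and 62 counts in BcorWT, or 22.4 and 13.2 CPM (17.8 ± 6.48, SD, n = 2) against 24.5 and 11.7 CPM (18.1 ± 9.10, n = 2). In each genotype replicate 1 was the higher library, and the groups overlapped completely. The log2 fold change was -0.01 (SE 0.48, 95% interval -1.13 to 1.10) and the adjusted p was 0.997 by edgeR's quasi-likelihood test with Benjamini-Hochberg adjustment. Meis1 (chr11:18879817-19018985, minus strand) overlaps the antisense gene Gm16140, which is in the table.

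Pbx2 and Pbx3 encode PBX proteins, which bind HOX and MEIS proteins at once. Pbx2 (chr17:34591266-34597400, plus strand) had 554 and 725 counts in BcorΔE9-10 and 289 and 668 counts in BcorWT, or 102 and 118 CPM (110 ± 11.2, SD, n = 2) against 84.4 and 126 CPM (105 ± 29.2, n = 2). The BcorΔE9-10 libraries lay between the BcorWT libraries, and the log2 fold change was 0.07 (SE 0.34, 95% interval -0.71 to 0.85). Pbx2 overlaps Gpsm3, a gene on the same strand that is in the table and whose 3′ end lies within the bounds of Pbx2. Pbx3 (chr2:34171457-34373142, minus strand), the PBX gene most often linked with HOXA9 in leukaemia, had 35 and 45 counts in BcorΔE9-10 and 15 and 31 counts in BcorWT, or 6.47 and 7.34 CPM (6.90 ± 0.613, n = 2) against 4.38 and 5.83 CPM (5.11 ± 1.03, n = 2). The Pbx3 groups did not overlap, by a margin smaller than the distance between the BcorWT libraries. Its log2 fold change of 0.42 (SE 0.51, 95% interval -0.76 to 1.61) had an unadjusted p of 0.431 and an adjusted p of 0.952 by edgeR's quasi-likelihood test with Benjamini-Hochberg adjustment.

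Pknox1 (chr17:31564734-31607693, plus strand) encodes PREP1, which competes with MEIS1 for PBX partners. It had 209 and 217 counts in BcorΔE9-10 and 102 and 273 counts in BcorWT, or 38.6 and 35.4 CPM (37.0 ± 2.30, SD, n = 2) against 29.8 and 51.4 CPM (40.6 ± 15.3, n = 2). Again the BcorΔE9-10 libraries lay between the BcorWT libraries. The log2 fold change was -0.14 (SE 0.36, 95% interval -0.98 to 0.70). For Meis1, Pbx2 and Pknox1 the sign of the difference changed in some of the alternative fits, so no direction is given for them.

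**Figure D3:**
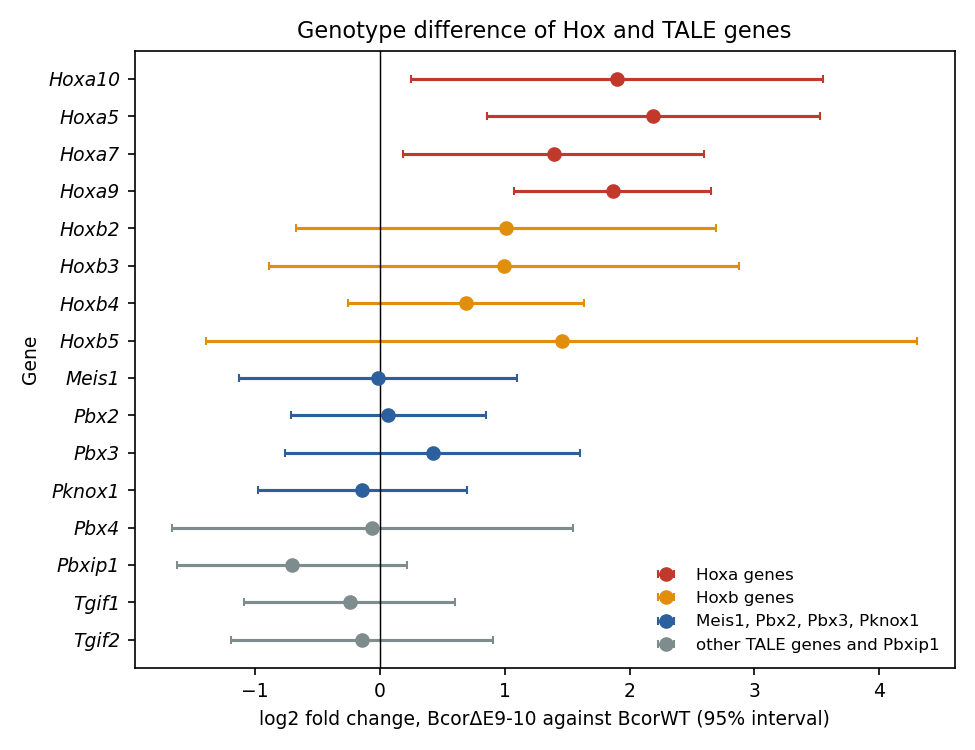
Log2 fold change of BcorΔE9-10 against BcorWT with its 95% interval, for the Hox and TALE genes described, coloured by class. Intervals of Hoxa5, Hoxa7, Hoxa9 and Hoxa10 lie above 0, and all others include 0.

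The balance between Hoxa genes and cofactors was read in each library. Summed TALE levels were 170 and 174 CPM in BcorΔE9-10 and 143 and 195 CPM in BcorWT, a ratio of means of 1.02. The Hoxa sum divided by the TALE sum was 0.602 and 0.450 in BcorΔE9-10 (0.526 ± 0.107, SD, n = 2) and 0.212 and 0.112 in BcorWT (0.162 ± 0.0708, n = 2). Hoxa9 tags per Meis1 tag were 2.70 and 3.79 in BcorΔE9-10 and 0.702 and 1.13 in BcorWT. Hoxa9 tags per Pbx3 tag were 9.34 and 6.82 against 3.93 and 2.26. In each of these ratios both BcorΔE9-10 libraries were above both BcorWT libraries. As the TALE sums had a ratio of means of 1.02, the Hoxa to TALE ratio mostly restates the Hoxa difference. None of these ratios was tested.

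The order of mean tag levels was not the same in the 2 groups. Quant-seq gives about 1 tag for each transcript whatever its length, so CPM were compared between genes without division by length, with the limit that priming at a gene's own 3′ end also enters its level and was not measured. In BcorΔE9-10 the order by mean CPM was Pbx2, Hoxa9, Pknox1, Meis1, Hoxa7, Hoxa5, Hoxa10 and Pbx3. In that group Hoxa7 overlapped Meis1 and Hoxa10 overlapped Hoxa5 across the replicates, and the other neighbours did not overlap. In BcorWT the order was Pbx2, Pknox1, Meis1, Hoxa9, Hoxa7, Pbx3, Hoxa10 and Hoxa5. There Hoxa9 overlapped Meis1, Pbx3 overlapped Hoxa7 and Hoxa5 overlapped Hoxa10. Hoxa9 was therefore above Pknox1 and Meis1 in both BcorΔE9-10 libraries, and below Pknox1 in both BcorWT libraries.

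The pattern of Hoxa9 over the 4 libraries was compared with that of every other gene by the Euclidean distance between centred log2 CPM. The nearest genes were Cdnf (distance 0.246), which encodes a neurotrophic factor, Zbtb10 (0.256), a zinc finger factor, the processed pseudogene Gm9134 (0.317), Prss16 (0.432), a thymus serine protease, and Pear1 (0.441), a platelet receptor. Zbtb10 had 68 and 76 counts in BcorΔE9-10 and 15 in each BcorWT library, while Cdnf had 13 in each BcorΔE9-10 library and 2 in each BcorWT library. None of these 5 genes is on chromosome 6. Of the other members, Hoxa5 was 70th nearest to Hoxa9, Hoxa7 71st and Hoxa10 130th, whereas Pbx3 was 2086th, Pbx2 5266th, Meis1 5342nd and Pknox1 7010th. With 4 libraries in 2 groups these distances mostly restate the genotype difference, and they carry no test.

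Genes beside the cluster were read to see how far along chromosome 6 the difference extended. Hoxaas3, an antisense transcript that runs across Hoxa5 and the 3′ end of Hoxa7, had 77 and 39 counts in BcorΔE9-10 and 11 and 26 counts in BcorWT. The groups did not overlap, and the log2 fold change was 1.32 (SE 0.58) with an unadjusted p of 0.0547. Within 2 Mb of Hoxa9, 13 genes other than the members were measured. Their median log2 fold change was 0.25, in a range of -0.86 (Osbpl3) to 1.32 (Hoxaas3). None had an unadjusted p below 0.05, and 3 were higher and 2 lower without overlap between groups, against 16.8% and 17.1% of all genes. Skap2 and Hibadh, genes on either side of the cluster, had log2 fold changes of 0.25 (SE 0.30) and -0.11 (SE 0.34).

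**Figure D4:**
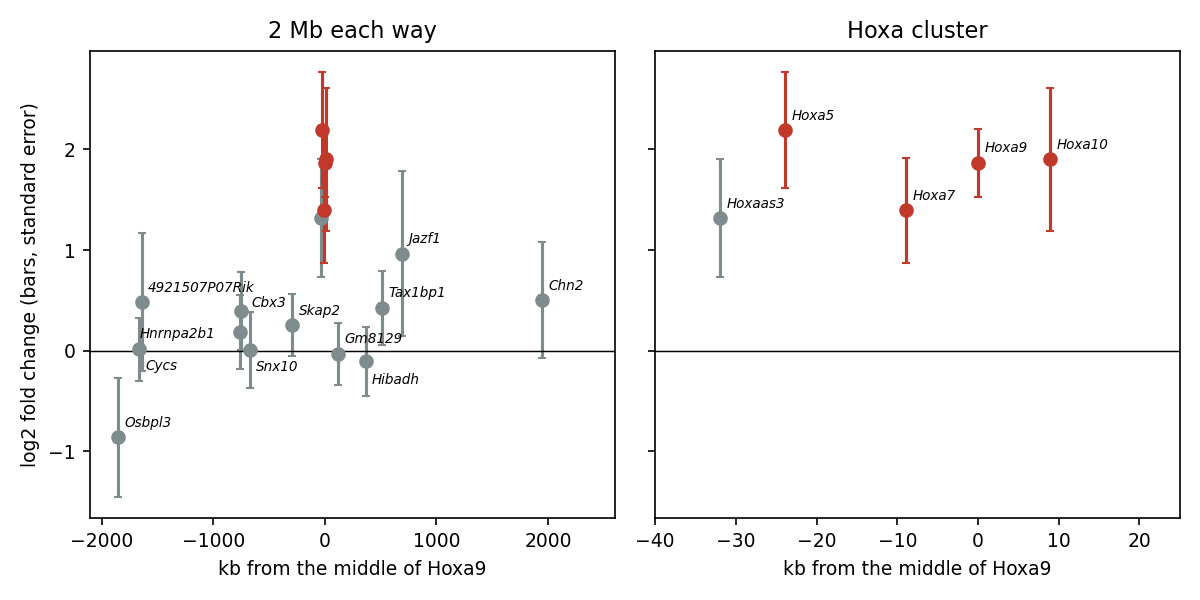
Log2 fold change of BcorΔE9-10 against BcorWT, with its standard error, by distance in kb from the middle of Hoxa9, over 2 Mb each way (left) and within the cluster (right), with members in red. The Hoxa members and Hoxaas3 are the points above 1, and the other genes lie between -0.86 and 0.97.

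Of the Hox genes outside the Hoxa cluster, 4 of 34 listed were in the table, all from the Hoxb cluster, whose members Hoxb3, Hoxb4 and Hoxb5 are also expressed in stem cells. Hoxb4 had 129 and 98 counts in BcorΔE9-10 and 35 and 76 in BcorWT, and the groups did not overlap. Its log2 fold change was 0.69 (SE 0.41) with an unadjusted p of 0.131 in edgeR's quasi-likelihood test. Hoxb2, Hoxb3 and Hoxb5 had estimates of 1.01 (SE 0.73), 0.99 (SE 0.81) and 1.46 (SE 1.23), and each overlapped between the groups. The Hoxb5 estimate rested on 38 and 21 counts against 14 and 0. Summed Hoxb levels were 52.3 and 36.5 CPM in BcorΔE9-10 and 31.2 and 17.3 CPM in BcorWT. No Hoxb gene had an unadjusted p below 0.05 in edgeR's quasi-likelihood test.

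Of the other TALE genes and PBX-interacting genes, 4 of the 14 considered were measured, and none had an unadjusted p below 0.05. Pbxip1, which encodes a PBX-interacting protein that restrains PBX binding to DNA, had 463 and 531 counts in BcorΔE9-10 and 313 and 1000 in BcorWT. Its log2 fold change was -0.70 (SE 0.40). Tgif1 and Tgif2, which encode TALE repressors, had log2 fold changes of -0.24 and -0.14, and Pbx4 of -0.06. Tgif1 and Pbxip1, 2 of the 4, were lower in BcorΔE9-10 without overlap, beside 17.1% of all genes.

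A list of 20 genes known as targets of HOXA9 and MEIS1 in leukaemia or progenitors, made from general knowledge and not from these libraries, had 19 genes in the table. None passed an adjusted p of 0.05 in edgeR's quasi-likelihood test with Benjamini-Hochberg adjustment, and 1 had an unadjusted p below 0.05 with a higher level, against 1.34% of all genes. That gene was Id2, an inhibitor of basic helix-loop-helix factors, with 471 and 725 counts in BcorΔE9-10 and 198 and 300 in BcorWT. Its log2 fold change was 0.84 (SE 0.32) with an unadjusted p of 0.0313 in the same test. Targets with groups that did not overlap were higher in 4 cases (Id2, Myb, Etv6 and Camk2d) and lower in 5 (Trib2, Sox4, Cd34, Flt3 and Igf1r) of the 19, beside 16.8% and 17.1% of all genes. Myb, a progenitor transcription factor, had a log2 fold change of 0.56 (SE 0.33), Sox4 of -0.54 (SE 0.32) and Trib2, a pseudokinase gene, of -1.27 (SE 0.59). The median over the 19 genes was 0.12, against 0.03 for the TALE members and 1.88 for the Hoxa members.

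In bulk RNA a change in level per cell and a change in the share of cells that express a gene cannot be told apart, so markers of other cells are given beside the Hoxa result. Kit, the gate's positive marker, was at 52.1 and 61.9 CPM in BcorΔE9-10 and at 53.7 and 29.4 CPM in BcorWT, with overlapping groups, and Ly6a, which encodes Sca-1, had between 0 and 20 counts in a library. Stem and multipotent progenitor markers, of which 8 of 14 were measured, summed to 90.7 and 73.2 CPM in BcorΔE9-10 and to 109 and 91.5 CPM in BcorWT, lower in both BcorΔE9-10 libraries. Cd34 carried most of that sum, with a mean of 46.9 CPM in BcorΔE9-10 and 61.6 CPM in BcorWT. Of the 8 genes, 1 (Esam, log2 fold change 1.01) was higher and 2 were lower without overlap, beside 16.8% and 17.1% of all genes, and none had an unadjusted p below 0.05. Granulocyte-monocyte progenitor markers (11 of 11 measured) summed to 11793 and 9361 CPM against 12074 and 13303 CPM. Of these 11 genes 9 overlapped between the groups and 2 were lower without overlap, beside 17.1% of all genes, and none had an unadjusted p below 0.05. Late neutrophil markers (10 of 10) summed to 63556 and 155584 CPM against 94761 and 144284 CPM, although the gate is lineage-negative.

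Erythroid markers (12 of 14 measured) summed to 262 and 211 CPM in BcorΔE9-10 and to 112 and 111 CPM in BcorWT, and 5 of them had an unadjusted p below 0.05, all higher in BcorΔE9-10, against 1.34% of all genes. Eosinophil, basophil and mast cell markers (8 of 9) summed to 271 and 244 CPM against 579 and 756 CPM, and 6 had an unadjusted p below 0.05, all lower, against 3.07% of all genes. Monocyte and dendritic cell markers (7 of 10) summed to 306 and 255 CPM in BcorΔE9-10 and to 352 and 399 CPM in BcorWT, so these groups too did not overlap, and 4 of the 7 genes were lower without overlap, against 17.1% of all genes. Megakaryocyte markers (3 of 6) summed to between 102 and 265 CPM and lymphoid markers (6 of 14) to between 152 and 274 CPM in a library, with overlapping groups. In each of these lists 1 gene had an unadjusted p below 0.05, lower in BcorΔE9-10, against 3.07% of all genes. Log2 fold changes were below 0 for all 3 megakaryocyte genes and for 4 of the 6 lymphoid genes. Xist is expressed by female cells and hence by those of the recipients. It was at 2.40 and 3.91 CPM in BcorΔE9-10 and at 18.7 and 19.0 CPM in BcorWT. Of the Y-linked genes, Ddx3y was at 64.9 and 61.9 CPM in BcorΔE9-10 and at 58.4 and 32.2 CPM in BcorWT. Uty was at 19.0 and 17.9 against 19.6 and 6.96 CPM, and Eif2s3y at 15.5 and 16.6 against 18.7 and 7.90 CPM. Kdm5d was at 3.88 and 6.19 against 10.2 and 2.63 CPM. Uty, Eif2s3y and Kdm5d thus overlapped between the groups. The part of these differences in the Hoxa levels was not tested.

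**Figure D5:**
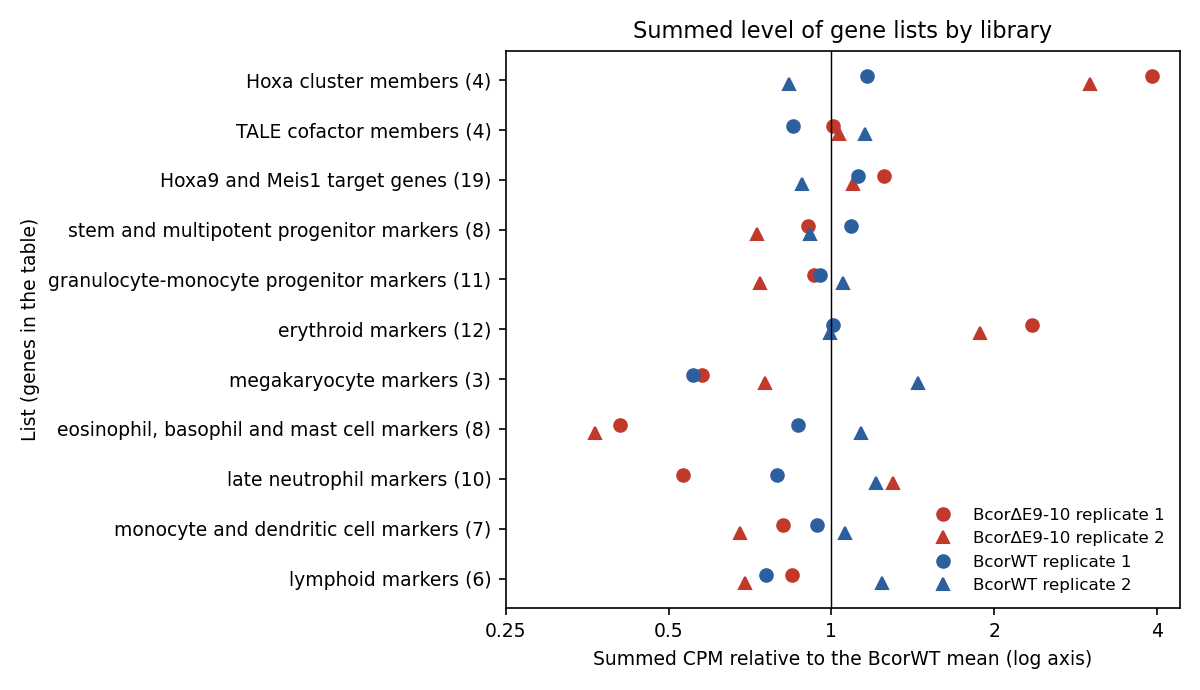
Summed CPM of each gene list in each library, relative to the BcorWT mean on a log axis, with circles for replicate 1, triangles for replicate 2, red for BcorΔE9-10 and blue for BcorWT. The Hoxa and erythroid sums lie to the right in both red libraries, the eosinophil, basophil and mast cell sum lies to the left, and the points of the TALE sum lie on both sides of 1.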

How the data were processed

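Quant-seq 3′ RNA libraries (2 BcorΔE9-10, 2 BcorWT) were analysed from the deposited gene counts. Before deposit the authors dropped reads of low quality, trimmed the others (cutadapt), aligned to mm10 (HISAT2) and counted reads on genes (subread); neither strand setting nor gene annotation is given in the sources used here. Deposited values of BcorΔE9-10 replicate 2 and BcorWT replicate 1 were taken for estimated counts and rounded, since Gm4430 is not whole there, and the authors' text does not say how that arose. The table holds 12067 genes, of which filterByExpr removed 0.

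The genes were fitted with edgeR 4.0.16 in R 4.3.3 (TMM scaling, quasi-likelihood F test, prior count 0.125 for fold changes, Benjamini-Hochberg adjustment over all genes, threshold 0.05), with no covariate. Standard errors are the log2 fold change over the root of F. CPM are TMM-scaled, and distances between patterns used log2 CPM with a prior count of 2. Alternatives were limma-voom (limma 3.58.1), DESeq2 1.42.0 and its size factors, an unfiltered table, a minimum of 10 counts in every library, a prior count of 2, the replicate number as a block, Gm42418 removed, and each library left out. On simulated counts for this comparison (11768 genes) edgeR recovered 103 of 111 genes changed by a log2 fold change of 3 and 25 of 87 changed by 1.5, with 5 false among 133 calls. The simulated dispersion followed its trend with mean level, the same in both groups, with no scatter between genes of like level. The recovery in the real libraries, whose BcorWT pair differed more, was not measured.

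Genes were placed with GENCODE M21 (GRCm38), and promoter sequences came from RefSeq (GRCm38.p6), with entries for 6 members. Python 3.11.15 with pandas 2.3.3 and matplotlib 3.10.9 was used for tables and figures. The members, gene lists and tests were chosen with earlier results of these data known. Named genes were the members, every other Hox and TALE gene measured (except for an item not reported here), up to 4 genes of lowest p from each other list, the 5 genes nearest to Hoxa9, and markers as whole lists; a few further genes (targets named by group, Cd34, Esam, and the genes flanking the cluster) were chosen after their values were seen. Molecular identifiers are not described, and intervals and the 3-count floor cover counting error only. As the labels do not say which animals gave each library, p-values measure the spread between these libraries.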

Additional observations from a re-analysis of the deposited data

How the results depend on the processing

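The 4 Hoxa genes kept a positive log2 fold change in every alternative that gave a value, with ranges over the libraries left out in turn of 1.86 to 2.71 for Hoxa5, 0.76 to 1.83 for Hoxa7, 1.68 to 2.06 for Hoxa9 and 1.15 to 3.14 for Hoxa10. The ratio of Hoxa sums then ran from 2.97 to 4.14. Hoxa5 and Hoxa10 gave no value with at least 10 counts in every library. Hoxa9 passed the threshold with DESeq2 (1.87, adjusted p = 0.0150) and, with edgeR, without BcorWT replicate 1 (2.06, adjusted p = 0.0164), as did Hoxa10 (3.14, adjusted p = 0.0375). Members called numbered 0 in the reported fit, 1 with DESeq2 and 0 to 2 with a library left out. The genes called numbered 2, but 5 with at least 10 counts in every library, 4 with limma-voom, 43 with DESeq2 and 6 to 596 with a library left out. The highest of these came without BcorWT replicate 1, where the lone BcorWT library is assumed to vary like the BcorΔE9-10 pair. Among the cofactors, Meis1 changed sign with limma-voom (0.070), the replicate block (0.020) and libraries left out (-0.47 to 0.60), Pbx2 with libraries left out (-0.19 to 0.39, with -0.04 without BcorΔE9-10 replicate 2) and Pknox1 likewise (-0.48 to 0.31). The cause was not tested. Same-numbered libraries share only a number (correlation of deviations -0.0945 over 12067 genes), and with the replicate block 14 genes and no member were called, Hoxa9 at 1.87 with an adjusted p of 0.161. Counts of 5 to 14 limit the precision of Hoxa5 and Hoxa10 in BcorWT.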

Other observations

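The antisense transcript Hoxb3os of the Hoxb cluster, named after its values were seen, had 116 and 90 counts in BcorΔE9-10 and 33 and 16 counts in BcorWT, with a log2 fold change of 1.55 and an unadjusted p of 0.0306 in edgeR's quasi-likelihood test, beside estimates of 0.69 to 1.46 for the Hoxb genes measured.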
